A study of Mus musculus with 6 samples.

Results

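Genes of DNA replication and mitosis were examined in mouse E14 embryonic stem cells in which Tip5, the protein encoded by Baz2a, had been knocked down. The genes are 45 named components of S phase, G2 and mitosis, taken by symbol, with the cyclins of G1 left out. Of these, 40 had at least 1 probe on the array and 67 probes in all, out of 25697. Gins1, Gins2, Ccnb1, Aurkb and Mki67 are not analysed here. The rule that names the genes uses symbols and function, with no measured value in it, although it was set with earlier results of these data known.

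Both groups were E14 cells, grown on gelatin in serum with LIF and transfected by electroporation, with 3 arrays each. The labels number the replicates and do not say whether they were separate cultures, so p-values measure the spread between these samples, which may be technical. The control group received a non-specific shRNA and is called wild type by the labels. In the knockdown group, Tip5 shRNA constructs carrying different selection markers were combined. Antibiotic selection ran for 6 days from 72 hours after electroporation, and the labels place the samples at passage 3 after each transfection. Each array read RNA of a cell population, so that fewer cells in a phase and less RNA per cell cannot be told apart.

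Replication origins are licensed in G1 by Cdc6 and Cdt1, which help to load the Mcm2 to Mcm7 helicase. Cdc45 and the GINS complex then complete the active helicase in S phase. Cyclin-bound Cdk1 drives entry into mitosis, where Aurora and Polo-like kinases build the spindle, the spindle checkpoint holds Cdc20 in check, and separase (Espl1) parts the sister chromatids. E2F factors activate many S phase genes, and Mybl2 and Foxm1, bound with the MuvB complex, activate G2 and mitosis genes through the CHR element of their promoters. Embryonic stem cells are known for a short G1 and a large share of cells in S phase.

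Promoters of these genes often held such elements. In the window from 250 bases before to 50 bases after the annotated start (RefSeq, GRCm38.p6), the CHR letters TTTGAA were found on either strand in 10 of the 14 promoters of tested G2 and mitosis genes (71.4%) and in 2 of the 14 promoters of tested S phase genes (14.3%). Over all 32851 promoters of the same length the share was 17.9%, and over those of all genes tested on the arrays 11.7%. The E2F letters (TTTCCCGC, TTTGGCGC or TTTCGCGC) showed the opposite order, with 6 of 14 S phase promoters (42.9%) and 2 of 14 G2 and mitosis promoters (14.3%). Their share was 1.84% of all promoters and 3.34% of those of all genes tested. The CCAAT box (CCAAT) was held by 12 of 14 G2 and mitosis promoters (85.7%), 11 of 14 S phase promoters (78.6%), 37.4% of all and 38.2% of those of all genes tested. Matches are counted on both strands and may overlap. Of the 33 tested genes, 29 had an entry in the promoter table. A match describes letters only.

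The promoter of Ccnf, the gene with the largest difference, is set here beside those of Cdk1, Cdc20 and Kif11, which hold the same elements, and of the S phase genes Mcm5 and Mcm6. Cdk1, Cdc20 and Kif11 are among 9 genes with a positive difference, of 12 tested genes whose promoter holds TTTGAA. Top2a (-0.27), Cdc45 (-0.18) and Espl1 (-0.11) hold TTTGAA and CCAAT as well and had a negative difference. Each line gives the 160 bases before the start, 5′ to 3′ on the gene's strand, with the matched letters of all 3 elements in capitals.
Ccnf (chr17:24251410-24251569, minus strand): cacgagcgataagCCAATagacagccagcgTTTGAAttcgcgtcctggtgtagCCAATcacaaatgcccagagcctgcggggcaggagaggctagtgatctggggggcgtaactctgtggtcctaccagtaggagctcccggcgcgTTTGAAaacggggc
Cdk1 (chr10:69352913-69353072, minus strand): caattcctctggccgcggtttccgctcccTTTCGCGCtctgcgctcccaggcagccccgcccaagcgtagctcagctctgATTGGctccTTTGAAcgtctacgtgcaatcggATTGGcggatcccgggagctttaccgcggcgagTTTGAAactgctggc
Cdc20 (chr4:118437344-118437503, minus strand): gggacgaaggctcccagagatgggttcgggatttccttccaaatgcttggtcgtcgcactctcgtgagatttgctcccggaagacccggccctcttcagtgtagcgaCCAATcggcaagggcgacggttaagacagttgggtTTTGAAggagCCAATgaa
Kif11 (chr19:37376222-37376381, plus strand): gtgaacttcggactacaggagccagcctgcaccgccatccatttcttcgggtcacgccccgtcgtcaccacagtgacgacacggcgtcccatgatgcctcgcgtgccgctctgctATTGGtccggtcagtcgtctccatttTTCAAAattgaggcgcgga
Mcm5 (chr8:75109349-75109508, plus strand): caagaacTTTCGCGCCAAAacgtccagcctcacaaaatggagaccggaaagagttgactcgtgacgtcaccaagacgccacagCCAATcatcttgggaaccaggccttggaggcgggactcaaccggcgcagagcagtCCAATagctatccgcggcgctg
Mcm6 (chr1:128359706-128359865, minus strand): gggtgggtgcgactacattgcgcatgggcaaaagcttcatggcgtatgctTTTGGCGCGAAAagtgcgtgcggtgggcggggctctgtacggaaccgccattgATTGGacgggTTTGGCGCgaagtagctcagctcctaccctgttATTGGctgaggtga
In Ccnf the CHR letters lie 130 and 14 bases before the start and the CCAAT boxes 147 and 107 bases before it. Cdk1 holds the CHR letters 71 and 15 bases before its start, Cdc20 18 bases and Kif11 19 bases before it, in Kif11 on the other strand. The Mcm5 and Mcm6 windows hold no TTTGAA. Each has a pair of E2F matches on opposite strands that overlap, beginning 153 and 149 bases before the start in Mcm5 and 110 and 106 bases in Mcm6, and Mcm6 has another 47 bases before it.

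The arrays showed the knockdown and an embryonic stem cell profile. Levels are given as normalized log2 signal throughout. Control replicates 1, 2 and 3 had Baz2a at 6.42, 7.51 and 5.99, and knockdown replicates 1, 2 and 3 at 5.21, 4.74 and 5.13, so the groups did not overlap (log2 difference -1.62, SE 0.39). The probe was detected on 3 control and 2 knockdown arrays, and knockdown replicate 2 lay below the lowest detected signal of any probe (4.96), so the remaining level is not fixed by these arrays. With no background correction the difference was -0.57. Its limma adjusted p was 0.203, and 0.0810 with the replicate number as a block. All 6 stem cell markers (Pou5f1, Nanog, Sox2, Klf4, Esrrb and Zfp42) were detected on all 6 arrays. Replicate 3 stood apart in both groups on the first principal component, which held 52.2% of the variance. Of 8 endoderm markers, 4 were detected on at least 3 arrays and none was undetected on every array. Their summed normalized signal was 3626 to 4697 on the control arrays, 2381 and 1994 on knockdown replicates 1 and 2 and 14343 on knockdown replicate 3. Sparc made up most of this sum on every array but knockdown replicate 3. It read 11.46, 11.59 and 11.71 in controls and 10.71, 10.48 and 12.76 in the knockdown, so the sum does not describe all 8 markers alike. Of 6 fibroblast markers, 2 were detected on at least 3 arrays and 2 (Col3a1 and Postn) on none, with sums of 372.3 to 548.8 and 242.1 to 385.5. The part of these other cell types in the results below was not tested.

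Replication and mitosis genes as a group differed little between knockdown and control. A gene was tested where a probe was detected (detection p under 0.05) on at least 3 arrays, and stands by its brightest such probe. This left 33 of the 40 genes, each detected on all 6 arrays. None of the 33 passed an adjusted p under 0.05 in limma with 2-group means, where 0.0776% of all 9015 genes tested did, and 1 gene (Ccnf) had an unadjusted p under 0.05, against 11.2% of all genes. With the replicate block 1 of the 33 had an unadjusted p under 0.05, against 22.8% of all genes. The same 1 gene, Ccnf, passed the adjusted threshold with the block and was higher, against 1.95% of all genes in either direction and 0.732% higher. The median log2 difference was 0.13, beside 0.022 over all genes tested. Of the 33, 22 had a positive difference and 11 a negative one, and over all genes 52.8% were positive. The 14 tested S phase genes had a median of 0.040, with 7 positive. The 16 tested G2 and mitosis genes had a median of 0.15, with 12 positive.

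For 31 of 33 genes (93.9%) the 95% interval lay within a 2-fold change in either direction, beside 69.2% of all genes, the exceptions being Ccnf and Top2a. The 33 genes were brighter, with a median level per array of 10.8 to 11.0, beside 8.07 to 8.09 over all genes tested. Their median SE was 0.20, beside 0.24. The part of signal level in these shares was not tested. Apart from Ccnf, differences ran from -0.28 to 0.36, that is from 0.821 to 1.29 times the control level. Adjusted p-values of these 32 genes lay between 0.686 and 0.992 with 2-group means and between 0.286 and 0.968 with the block. In 4 genes, Ccnf, E2f1, Cdk1 and Tpx2, every knockdown array lay above every control array, where 8.96% of all genes did so. By the brightest probe, in none of the 33 did every knockdown array lie below, where 721 of 9015 genes did. On another tested probe of Mcm6 and another of Birc5 every knockdown array lay below.

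Ccnf encodes cyclin F, an F-box protein that recruits substrates, among them Rrm2, to an SCF ubiquitin ligase in S and G2 phase. Its single probe read 7.79, 7.36 and 8.04 in controls against 8.75, 8.63 and 8.82 in the knockdown. The 3 knockdown arrays were close together, and the lowest of them lay above the highest control. The log2 difference was 1.01 (SE 0.22, 95% interval 0.49 to 1.52), a 2.01-fold higher level, from 7.73 ± 0.34 to 8.73 ± 0.095 (SD, n = 3). It was 0.97, 1.27 and 0.78 in pairs 1, 2 and 3. The limma adjusted p was 0.172 with 2-group means and 0.0437 with the replicate block (95% interval 0.63 to 1.38). That call was lost in the block with the authors' processed values (adjusted p = 0.179), with no filter (adjusted p = 0.0736), without replicate 1 (adjusted p = 0.167) and without replicate 2 (adjusted p = 0.208), and kept without replicate 3 (adjusted p = 0.00601, limma). Leaving out pair 1, 2 or 3 gave differences of 1.03, 0.88 and 1.12. With that pair left out, the block called 16, 0 and 1143 of all genes tested.

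The other 4 tested genes of Cdk control did not pass. Of these, Cdk1 holds the CHR letters, Cdc25a and Cdc25b hold CCAAT and no TTTGAA, and Cdc25c has no sequence here. Cdk1, the mitotic kinase, read 11.71, 11.62 and 11.61 in controls and 11.74, 11.95 and 11.83 in the knockdown. The groups did not overlap, but the lowest knockdown and the highest control array were 0.031 apart, in pair 1, and the difference was 0.19 (SE 0.16, interval -0.19 to 0.58). The Cdc25 phosphatases remove the inhibitory phosphates that Wee1 and related kinases place on Cdk1 and Cdk2. Cdc25a differed by -0.064 (SE 0.17), Cdc25b by 0.27 (SE 0.28) and Cdc25c by 0.048 (SE 0.24). Cdc25b read 5.47, 5.41 and 6.35 in controls and 5.98, 6.16 and 5.92 in the knockdown, so that control replicate 3 was the highest of the 6 arrays. Its difference was 0.56 without that array and 0.11 without control replicate 2. Among the 12 tested genes whose promoter holds TTTGAA, differences ran from -0.27 to 1.01 with a median of 0.15, and 9 were positive. For the 17 without these letters they ran from -0.28 to 0.36 with a median of 0.096, and 10 were positive.

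**Figure D1:**
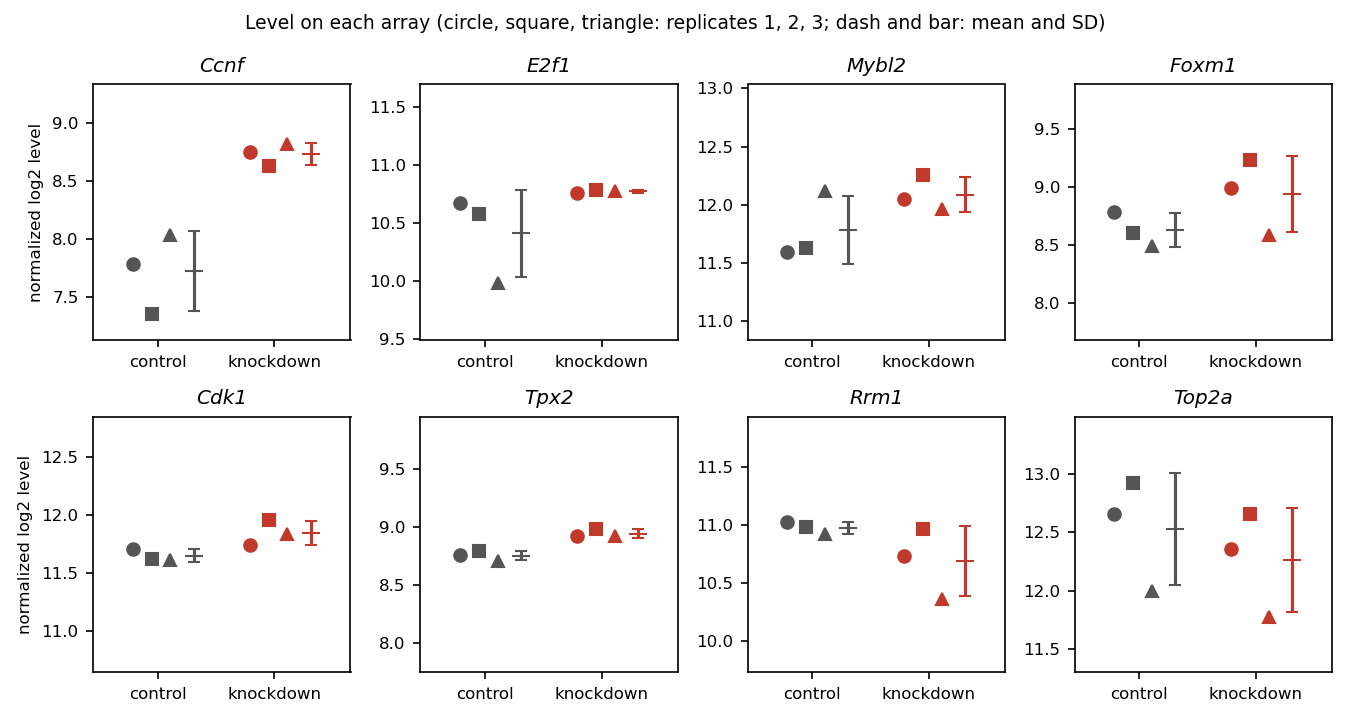
Normalized log2 level of 8 genes on each array, control in grey and knockdown in red. Circles, squares and triangles are replicates 1, 2 and 3, the dash and bar beside them are mean and SD (n = 3), and every panel spans the same range of log2 units. Ccnf reads 7.36 to 8.04 in controls and 8.63 to 8.82 in the knockdown, whereas in Mybl2, Foxm1, Rrm1 and Top2a the groups overlap.

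E2f1, Mybl2 and Foxm1 had positive differences, and none of these 3 transcription factors passed the test. E2f1, an activator of S phase genes, read 10.67, 10.58 and 9.98 in controls against 10.76, 10.79 and 10.78 in the knockdown. The knockdown arrays were nearly equal, and control replicate 3 was the low array. The difference was 0.36 (SE 0.22, interval -0.16 to 0.89), made of 0.083, 0.21 and 0.80 in pairs 1, 2 and 3, and it was 0.15 without control replicate 3. Mybl2, the B-Myb partner of MuvB, read 11.60, 11.63 and 12.12 in controls and 12.05, 12.25 and 11.96 in the knockdown, a difference of 0.31 (SE 0.21). Its other probes gave 0.29 and 0.81, the latter with 8.06, 7.12 and 8.16 against 9.06, 8.78 and 7.93. Foxm1, the forkhead factor of G2, read 8.78, 8.61 and 8.49 and then 8.99, 9.23 and 8.59, a difference of 0.31 (SE 0.22). For Mybl2 and Foxm1 knockdown replicate 3 lay inside the control range.

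Helicase loading and activation genes showed no common shift. The median over the 10 tested genes was -0.016, with 4 positive and 6 negative. By the brightest probe none of the 10 had groups that did not overlap, beside 17.0% of all genes tested. Mcm7 had the highest difference of the 10, at 0.22 (SE 0.26), with 10.19, 10.15 and 9.91 in controls and 10.69, 10.45 and 9.78 in the knockdown, of which replicate 3 was the lowest of all arrays. The Mcm7 difference was 0.030 without knockdown replicate 1 and 0.50 without knockdown replicate 3. Mcm6 had the lowest, at -0.20 (SE 0.17), with 11.92, 11.87 and 11.72 against 11.73, 11.64 and 11.54. Its other tested probes gave -0.37 and -0.60, and on the last of these, a dim probe at 5.43 to 6.42, the groups did not overlap. Smaller differences were those of Mcm4 (-0.018), Mcm10 (-0.046), Cdc6 (-0.015), Mcm5 (0.10) and the licensing factor Cdt1 (0.095). Mcm2 (0.16), Mcm3 (-0.16) and Cdc45 (-0.18) filled the range between. The intervals of all 10 genes lay within a 2-fold change.

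**Figure D2:**
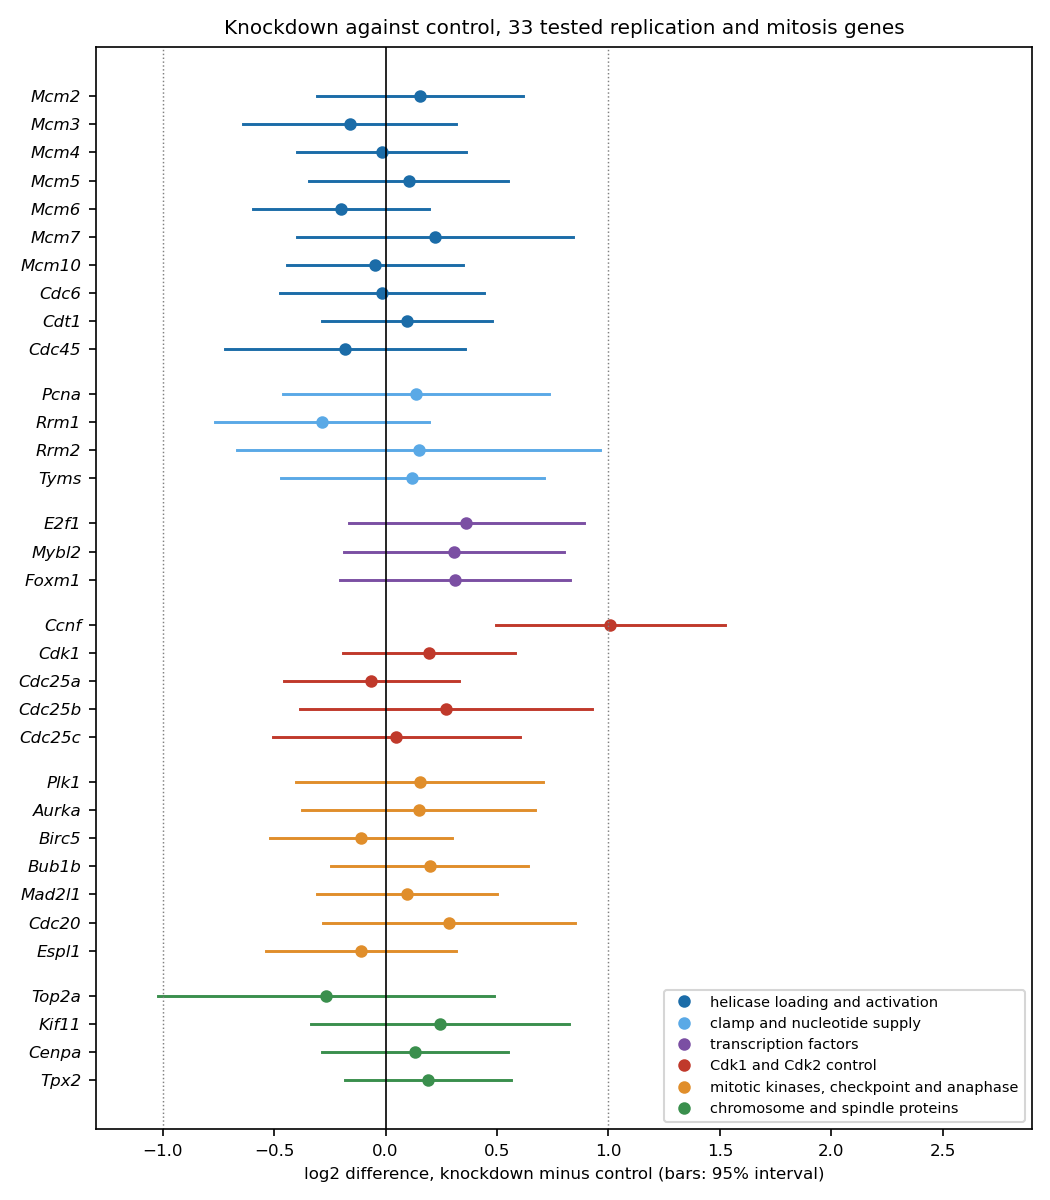
Log2 difference, knockdown minus control, of the 33 tested genes (points) with the 95% interval of the 2-group limma fit (bars), ordered and coloured by role. The vertical line is 0 and the dotted lines are a 2-fold change either way. Ccnf at 1.01 has an interval that leaves out 0, and of the 33 genes Ccnf and Top2a reach past a dotted line.

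Genes of the replication clamp and of nucleotide supply did not pass the test. Rrm1 and Rrm2 are the large and small subunits of ribonucleotide reductase, which makes deoxyribonucleotides. Rrm1 read 11.02, 10.98 and 10.92 in controls and 10.74, 10.97 and 10.37 in the knockdown, the lowest difference of the 33 (-0.28, SE 0.20). Rrm2, whose protein cyclin F targets, read 9.65, 9.30 and 10.27 and then 9.56, 9.61 and 10.51, a difference of 0.15 (SE 0.35), with replicate 3 high in both groups. Its other probe gave 0.24. Tyms, thymidylate synthase, differed by 0.12 (SE 0.25) and Pcna, the sliding clamp, by 0.14 (SE 0.25).

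For 7 genes of mitotic kinases, checkpoint and anaphase the median was 0.15, and 5 were positive. Cdc20, the anaphase-promoting complex activator, was highest at 0.29 (SE 0.24), with 12.42, 12.25 and 12.77 in controls and 12.47, 12.68 and 13.13 in the knockdown, and its other 3 probes gave 0.055 to 0.20. Espl1, separase, was lowest at -0.11 (SE 0.18), with 9.60, 9.77 and 9.92 against 9.50, 9.68 and 9.77. In both genes the groups overlapped. Plk1 and Aurka, the Polo-like and Aurora A kinases, each differed by 0.15 (SE 0.24 and 0.22), the checkpoint proteins Bub1b and Mad2l1 by 0.20 and 0.096 and Birc5, survivin, by -0.11. The other tested probes of Birc5 gave -0.041 and -0.17, and on the last of these the groups did not overlap.

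Of the 4 tested genes of chromosome and spindle proteins, 3 were positive and none passed the test. Tpx2, which activates Aurora A on the spindle, read 8.76, 8.79 and 8.71 in controls and 8.92, 8.99 and 8.93 in the knockdown. With SDs of 0.041 and 0.037 the groups did not overlap, for a difference of 0.19 (SE 0.16, where the moderated error is larger than the observed spread). Top2a, topoisomerase II alpha, read 12.66, 12.93 and 12.00 against 12.36, 12.66 and 11.78, a difference of -0.27 (SE 0.32) that was -0.30, -0.27 and -0.22 in pairs 1, 2 and 3. Replicate 3 was the low array of Top2a in each group, and its adjusted p with the block was 0.286 (limma). Without control replicate 3 the Top2a difference was -0.54, and without knockdown replicate 3 it was -0.024. Kif11, the Eg5 spindle motor, differed by 0.24 (SE 0.25), by 0.057 without knockdown replicate 2 and by 0.50 without knockdown replicate 3. Cenpa, the centromeric histone, differed by 0.13 (SE 0.18).

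**Figure D3:**
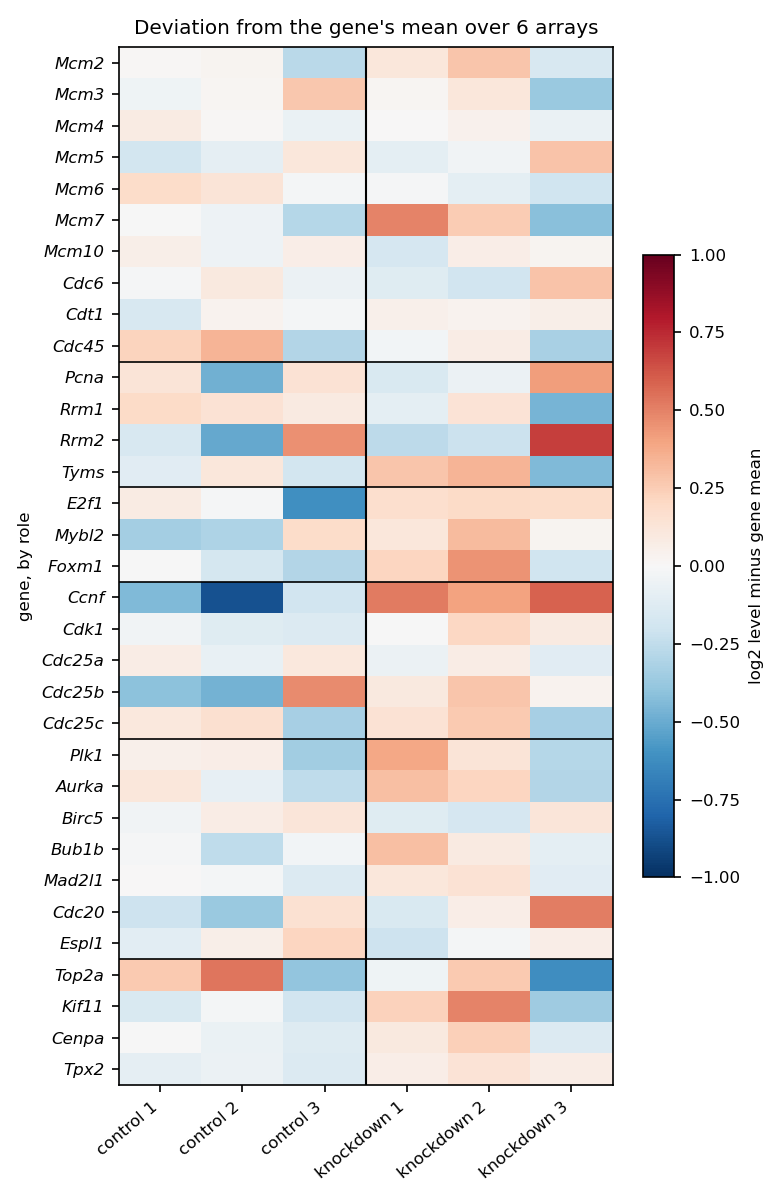
Heat map of the 33 tested genes by role (horizontal lines) on the 6 arrays, coloured by the log2 level minus the gene's mean over the 6 arrays. Blue and red mark lower and higher. Ccnf is blue on the 3 control arrays and red on the 3 knockdown arrays, while Top2a, Rrm2 and Plk1 change between replicate 3 and the others in both groups.

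Replicate 3 differed from replicates 1 and 2 in many of these genes. In knockdown replicate 3 the median of the 33 genes lay at -0.15 from the mean of knockdown replicates 1 and 2, and 22 genes were lower. In control replicate 3 the median lay at -0.083, with 19 genes lower. Over all genes tested these medians were -0.035 and -0.042. In 17 of the 33 (51.5%) replicate 3 was lower in both groups, beside 41.1% of all genes, and in 9 (27.3%) higher in both, beside 35.4%. Top2a lay at -0.80 in controls and -0.73 in the knockdown, whereas Rrm2 lay at 0.79 and 0.93. The 4 chromosome and spindle genes were lower in both groups, with Kif11 at -0.72 in the knockdown. Endoderm marker signal was highest on knockdown replicate 3 (14343) and was 4697 on control replicate 3. Median raw signal, before normalization, was 184.5 on control replicate 3 and 218.8 on knockdown replicate 3. On the arrays of replicates 1 and 2 it was 125.1 to 133.5. The part of endoderm signal or of raw signal in these values was not tested. The median difference between knockdown and control came to 0.083, 0.19 and -0.0046 for pairs 1, 2 and 3, and 0.15 with replicates 1 and 2 only.

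**Figure D4:**
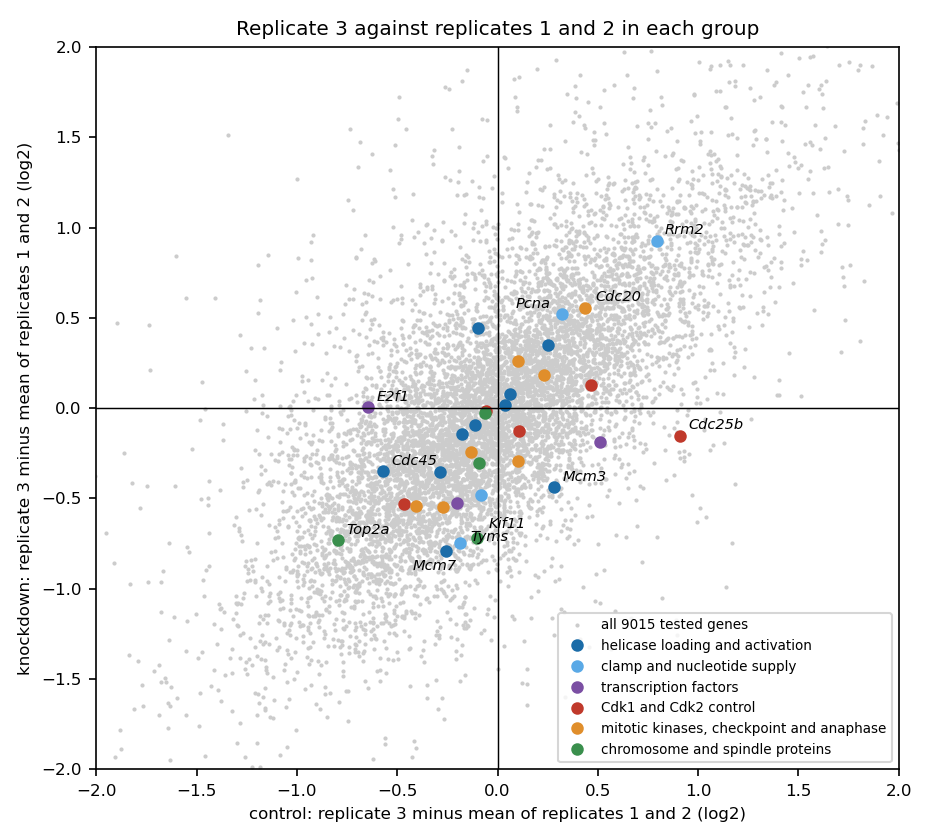
Log2 level of replicate 3 minus the mean of replicates 1 and 2, in control (horizontal axis) and knockdown (vertical axis), for all 9015 tested genes in grey and the 33 replication and mitosis genes coloured by role. Top2a lies at -0.80 and -0.73 and Rrm2 at 0.79 and 0.93, inside the cloud of all genes, and 134 genes lie beyond the axes at 2.

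Further genes of the same processes did not pass the test either. Of 38 tested among 48 other replication genes (origin recognition, polymerases, clamp loader, checkpoint), none passed either fit, 18 were positive and 20 negative, and the median difference was -0.034. The lowest was Prim2, the large primase subunit, with 10.07, 10.33 and 9.80 in controls and 9.49, 9.48 and 9.14 in the knockdown. These groups did not overlap, and the difference was -0.70 (SE 0.21, limma adjusted p = 0.293, and 0.0637 with the block). The highest, at 0.43, was Orc2, an origin recognition subunit. Of 35 tested among 51 other mitosis genes none passed, 27 were positive and 8 negative, with a median of 0.096. Pttg1, securin, the inhibitor of separase, was highest, with 6.96, 7.14 and 6.96 against 7.85, 7.67 and 7.17, a difference of 0.55 (SE 0.22, limma adjusted p = 0.448, and 0.146 with the block) and no overlap. Cenpm was lowest at -0.45 (SE 0.31). In the list of E2F, RB and MuvB factors none of the 12 tested passed, 9 were positive, and differences ran from -0.24 for Tfdp2 to 0.29 for Lin54, a MuvB subunit that binds the CHR element. Groups did not overlap in 3 of the 38, 4 of the 35 and 0 of the 12 genes, beside 17.0% of all genes.

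The remaining 7 of the 40 genes gave no usable level. Ccna2 and Ccnb2, cyclins A2 and B2, Wee1, the kinase that restrains Cdk1, the checkpoint kinases Bub1 and Ttk, and the kinesins Kif20a and Cenpe have 1 probe each. Ccna2 and Ttk were detected on 2 arrays, Wee1 and Kif20a on 1 and Ccnb2, Bub1 and Cenpe on none. Ccna2 read 4.51 to 5.28 and Ccnb2 4.36 to 4.45. Another 8 probes that failed the same filter belong to 6 tested genes. For Cdk1, a bright probe stood beside 2 that were detected on 1 array and on none. All 15 such probes read between 4.28 and 5.37, where the lowest detected signal of any probe was 4.96. Nothing on the direction of these 7 transcripts can be read from the arrays.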

How the data were processed

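Total RNA of 6 samples was hybridised to Illumina mouse arrays. Intensity per probe and its detection p-value were deposited for every array, per the file headers. The submitters' processing notes list GenomeStudio 2011.1, with no role stated. The authors also deposited a processed intensity on a linear scale, not centred, with column medians from 14.6 to 19.2, used only as an alternative. The sources used here do not give how its constants were chosen.

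Signals were corrected and normalized with neqc in limma 3.58.1 (R 4.3.3, offset 16, quantile, log2). The 13064 probes detected on at least 3 arrays were fitted with lmFit and eBayes, and p-values adjusted over all of them (Benjamini-Hochberg, threshold 0.05). Fits were tested on simulated data. SE and intervals are moderated. Probe symbols were updated by Entrez identifier with RefSeq (23962 of 23978 named probes). The number of arrays limits precision. Between 12473 and 13450 probes were detected per array.

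Replicate numbers come from the titles. Deviations from the group means correlated at 0.44, 0.53 and 0.70 for numbers 1, 2 and 3. On that ground the numbers were taken to pair the arrays. Deviations within a group cancel out and replicate 3 stood apart in both groups, so positive values for numbers 1 and 2 can arise from replicate 3 alone. They cannot show which of these arrays belong together, and the pairing remains an assumption. A fit with the number as a block is given where it changes a call, and also for some other genes.

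The genes and lists were chosen with earlier results of these data known. Named with values were Baz2a, genes called in either fit, the 8 of largest difference, the extremes of each role, genes with groups that did not overlap, with probes over 0.3 apart or detected on some arrays only, and the extremes of each further list. Alternatives covered background, normalization, filter, weights, variance trend, probe averaging and left-out arrays.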

Additional observations from a re-analysis of the deposited data

How the results depend on the processing

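The median difference of the tested genes (33, or 40 with no filter) stayed positive under all 29 alternatives. It lay within the spread between replicates of its main value of 0.13, from 0.060 without control replicate 3 to 0.17 without knockdown replicate 3. Adding the block or a variance trend, without weights, cannot change a difference in this balanced design. Those settings repeat a value and are not separate checks of it. None of the genes was called in the fit with 2-group means, where 7 of all genes tested were. With any 1 array left out none was called either (0 to 0), where 0 to 91 of all genes tested were. The pairing by replicate number gave 1 call, Ccnf, with the replicate block, beside 176 of all 9015 genes tested. Array weights gave 1 (limma adjusted p = 0.0120), beside 898 of all genes. Replicates 1 and 2 only gave 1 (limma adjusted p = 0.0216), beside 753 of all genes. With the block joined to a further change, all chosen after seeing the data, 1 was called with no background correction, offset 50, cyclic loess, the strict filter, array weights, a variance trend, the mean of probes and without replicate 3. Those settings called from 142 (mean of probes) to 1143 (without replicate 3) of all genes tested. The block called 0 with the authors' values, with no filter and without replicate 1 or replicate 2. In that order, these settings called 0, 46, 16 and 0 of all genes tested. Among the replication and mitosis genes, the gene called was Ccnf in each case. Its difference ranged from 0.71 to 1.16 over 29 alternatives, with limma adjusted p from 0.00441 to 0.626. Leaving out single arrays moved Rrm2 between -0.17 and 0.41, and its sign turned when control replicate 2 (-0.070) or knockdown replicate 3 (-0.17) was dropped. For Cdc25a it turned with replicates 1 and 2 only (0.013) and in the block without replicate 3 (0.013). Prim2 stayed negative (-0.83 to -0.56) and passed in 9 of 29 alternatives, Pttg1 stayed positive (0.32 to 0.72) and passed in 3, and Cenpm stayed negative (-0.80 to -0.25) and passed in 1, the block without replicate 3 (adjusted p = 0.0277). Baz2a ranged from -2.45 to -0.57 over 27 alternatives and passed in 7, with adjusted p from 0.0110 to 0.621. The strict filter left Baz2a out. Signal near background limits the 7 untested genes.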
